A study of Homo sapiens with 16 samples.

Results

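The 10 genes described here are the MHC class II genes HLA-DRA, HLA-DRB1, HLA-DPA1, HLA-DPB1, HLA-DQA1, HLA-DMA, HLA-DMB and HLA-DOA, together with CD74 and CIITA. They were found on the array by matching the RefSeq accession of each probe to these symbols. Of the 33731 probes tested, 18 matched, and the 10 genes stand among 16398 genes with a tested probe. All 10 had a probe that passed the filter on dim signals, and each gene is given by its brightest tested probe.

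The arrays measured RNA of LP-1, a human multiple myeloma cell line, in 16 samples. LP-1-cIAP2-eGFP cells carried a lentiviral pIRES2 construct for cIAP2, an inhibitor of apoptosis protein encoded by BIRC3, together with eGFP. The control line LP-1-eGFP carried the pIRES2 construct with eGFP alone, and both lines were stably transduced and sorted for eGFP, so that each line is 1 sorted population and the controls carry a virus and eGFP too. Each line was either untreated or exposed to 10 nM bortezomib, a proteasome inhibitor, and was taken at 6 h or at 24 h. This made 8 conditions with 2 replicates each, and the lines are called the cIAP2 line and the control line from here on. The array probe for BIRC3 lies outside the construct and detects the endogenous gene alone, so it does not check the overexpression. Its log2 signal differed by -1.16 in the cIAP2 line relative to the control (adjusted p = 7.42e-06, limma).

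The sample label was checked against marker genes. All 6 plasma cell markers on the list (SDC1, CD38, TNFRSF17, XBP1, MZB1 and JCHAIN) were well above background on all 16 arrays, which fits the label of a myeloma line. XBP1 was the brightest of them. Of the 7 B cell markers listed, CD79A was well above background on 16 arrays, BLK on 15, CR2 on 12 and BANK1 on 7, while CD79B was on 2, CD22 on 1 and the surface antigen MS4A1 on 0. Of the monocyte and dendritic cell list, CD14 was well above background on 13 arrays, ITGAM on 10 and CLEC9A on 6, and CSF1R, CD1C and FLT3 on 0. The keratins KRT8 and KRT18 of the epithelial list were well above background on 16 arrays, EPCAM on 2 and CDH1 on 0. Of the T cell list, CD2 was well above background on 15 arrays, CD3D on 12, CD3E on 10 and CD3G on 6.

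The median log2 signal of an array before normalization ranged from 3.18 to 6.64, and 35.5% to 71.1% of spots were well above background. The lowest of both values came from 1 array, replicate 1 of the cIAP2 line with bortezomib at 24 h. The difference between replicates had an SD of 1.48 across probes in that condition, against 0.50 to 0.77 in the other conditions. All 10 genes were lower on that array than on its replicate, with a median difference of -0.60 against -0.30 for all probes. The direction was not particular to it. All 10 were also lower on replicate 1 in the control line with bortezomib at 24 h (median -0.28). The same held in the cIAP2 line at 6 h, untreated (-0.16) and with bortezomib (-0.12). On the dim array, replicate 1 of the cIAP2 line with bortezomib at 24 h, the B cell gene CD79A stood at 13.25, against 10.25 to 10.95 on the others. The T cell gene CD2 stood there at 11.49, against 5.23 to 7.82. Summed over the tested markers, the B cell list reached 13.26 on the log2 scale, against 10.36 to 11.72 on the other arrays, and the T cell list 11.54, against 6.50 to 8.53. Each of these sums was carried by its 1 gene, CD79A or CD2. The other tested B cell genes were lower on this array than on its replicate, BLK with 5.61 against 6.27, CR2 with 3.35 against 5.30 and BANK1 with 3.43 against 4.12, and CD3D, CD3E and CD3G did not exceed 6.45 on any array. The part of these signals in the results was not tested. The 24 h results of the cIAP2 line with bortezomib rest on this array and its replicate, and the values without it are given where they differ in call or by much in size. The arrays lay on 2 slides, the first with 6 arrays of the cIAP2 line and 2 of the control line, and the second with the reverse. In the bortezomib 6 h condition, slide and line cannot be told apart.

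MHC class II molecules present peptides from the endocytic route to CD4+ T cells. The HLA-DR, HLA-DP and HLA-DQ molecules are each a pair of an alpha and a beta chain, CD74 is the invariant chain that occupies their groove during transport, HLA-DM removes the remaining CD74 peptide, and HLA-DO restrains HLA-DM. CIITA does not bind DNA by itself. It is the coactivator recruited by the factors RFX, CREB and NF-Y on the X and Y boxes of class II promoters, and its gene is normally silenced when B cells become plasma cells.

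The promoter stretches below are shown because the coactivator acts through them, and because the genes differ in how they behaved in the results that follow. Each is the stretch from 150 to 31 bases before the start of the RefSeq transcript, read 5′ to 3′ along the gene, with matches to 2 short motifs in capitals on either strand.
HLA-DRB1: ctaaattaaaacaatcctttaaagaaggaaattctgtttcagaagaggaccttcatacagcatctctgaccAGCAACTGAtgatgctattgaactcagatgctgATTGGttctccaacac
HLA-DQA1: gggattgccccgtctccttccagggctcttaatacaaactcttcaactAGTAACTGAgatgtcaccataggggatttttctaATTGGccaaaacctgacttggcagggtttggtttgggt
HLA-DMB: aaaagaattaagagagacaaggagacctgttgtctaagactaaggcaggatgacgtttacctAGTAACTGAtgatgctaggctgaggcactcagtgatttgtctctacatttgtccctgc
HLA-DOA: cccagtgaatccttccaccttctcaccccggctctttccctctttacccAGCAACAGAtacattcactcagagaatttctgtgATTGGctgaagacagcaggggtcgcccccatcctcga
HLA-DPB1: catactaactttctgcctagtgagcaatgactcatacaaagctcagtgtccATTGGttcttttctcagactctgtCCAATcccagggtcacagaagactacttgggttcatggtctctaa
CD74: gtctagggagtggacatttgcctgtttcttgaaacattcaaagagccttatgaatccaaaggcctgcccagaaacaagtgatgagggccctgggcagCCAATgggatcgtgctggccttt
HLA-DOB: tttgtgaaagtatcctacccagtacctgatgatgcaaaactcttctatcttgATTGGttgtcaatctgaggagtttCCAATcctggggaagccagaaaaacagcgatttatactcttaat
On GRCh38.p14 they lie at chr6:32589879-32589998 (HLA-DRB1, minus strand), chr6:32637256-32637375 (HLA-DQA1, plus strand), chr6:32941059-32941178 (HLA-DMB, minus strand), chr6:33009622-33009741 (HLA-DOA, minus strand), chr6:33075840-33075959 (HLA-DPB1, plus strand), chr5:150412941-150413060 (CD74, minus strand) and chr6:32817033-32817152 (HLA-DOB, minus strand), upstream of the annotated transcripts. The motifs are ATTGG, letters of the Y box, and AGNAACNGA, letters of the X box, chosen after these promoters had been seen, and the motifs do not overlap in these stretches. The RefSeq promoter table held 8 of the 10 genes, and HLA-DRA and CIITA were not among them. ATTGG occurred in 6 of the 8 genes and in 20.9% of all 35116 stretches of this length. AGNAACNGA occurred in 5 of the 8 genes (HLA-DRB1, HLA-DPA1 at 1 of its 2 starts, HLA-DQA1, HLA-DMB and HLA-DOA) and in 1.74% of all stretches. The stretches of HLA-DPB1 and HLA-DOB held ATTGG on both strands and no match to AGNAACNGA. Those of HLA-DQB1 and HLA-DQB2, not printed here, did too, so this arrangement is not particular to HLA-DPB1 and HLA-DOB. Both HLA-DQB1 and HLA-DQB2 were lower in the cIAP2 line and fell with bortezomib at 24 h, as given below. A match describes the letters and is not a binding site.

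The first question was how the class II genes differed between the line that overexpresses cIAP2 and its control. All 10 genes were lower in the cIAP2 line, in each of the 4 combinations of treatment and time. Averaged over these, the difference ranged from 1.87-fold for HLA-DMA to 6.24-fold for HLA-DOA, and the median of the 10 genes was -1.54 on the log2 scale against -0.01 for all genes. In RNA of whole cultures, fewer cells that express a gene and less RNA per cell cannot be told apart.

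CIITA, the coactivator, had log2 signals of 12.20 and 12.67 in untreated control cells at 6 h and of 12.80 and 12.71 at 24 h. Untreated cIAP2 cells gave 10.80 and 10.96 at 6 h and 11.21 and 11.39 at 24 h. With bortezomib for 6 h the signals were 11.62 and 12.02 in the control line and 10.28 and 10.72 in the cIAP2 line. Each array of the cIAP2 line was thus below both arrays of the control in the same condition. The average log2 difference was -1.92 (SE 0.27), a 3.79-fold lower level, with an adjusted p of 0.000985 from limma. This p lies just inside the limit of 0.001 used below. When each of the 16 arrays was left out in turn, it ranged from 5.16e-06 to 0.00413 and was above the limit 14 times, and it was below it without either replicate of the cIAP2 line with bortezomib at 24 h (log2 -1.65 without the dim one). Within single conditions CIITA did not pass the adjusted threshold at 6 h or 24 h without bortezomib (log2 -1.56 and -1.45, adjusted p = 0.209 and 0.284). Nor did it with bortezomib at 6 h (log2 -1.32, adjusted p = 0.312). The SE was 0.54 in each, because limma pooled the spread of all 8 conditions. The cIAP2 line with bortezomib at 24 h, which holds the dim array, had the widest replicate gap (5.19 and 7.33). These p-values therefore depend on the dim array too. With bortezomib at 24 h the difference was -3.35 (adjusted p = 0.0078), and -2.28 without the dim array (adjusted p = 0.00325). A second CIITA probe, dim on these arrays, was well above background on 15 of them, the same number as the reported one. It gave a line difference of 0.08 (adjusted p = 0.861), unlike the reported one.

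Among the classical chains, HLA-DRA, the alpha chain shared by all HLA-DR molecules, had log2 signals of 14.80 and 14.67 in untreated control cells at 6 h and of 14.76 and 14.79 at 24 h. In untreated cIAP2 cells it had 13.82 and 13.95 at 6 h, and 13.78 and 13.77 at 24 h. The lines did not overlap, and the gap between them was wider than that between replicates. The average difference was 1.98-fold (log2 -0.99, SE 0.10). HLA-DRB1, a beta chain of HLA-DR, had 15.94 and 15.87 in untreated control cells at 6 h against 14.03 and 14.09 in the cIAP2 line, and it differed 3.35-fold on average (log2 -1.75, SE 0.07). Its probe may also take up RNA of the near-identical DRB3, DRB4 and DRB5 genes, so its gene of origin is uncertain.

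HLA-DQA1, the alpha chain of HLA-DQ, had 15.61 and 15.71 in untreated control cells at 6 h and 13.67 and 13.71 in untreated cIAP2 cells. Its average difference of 3.87-fold (log2 -1.95, SE 0.10) was the widest among the 5 classical chains in the rule, with the reservation that HLA-DQA2 is a close copy. HLA-DPA1 and HLA-DPB1, the chains of HLA-DP, differed 2.25-fold and 2.61-fold. A second probe of HLA-DPA1 gave a log2 difference of -1.44 and the other 3 probes of HLA-DPB1 were 2.83-fold to 3.21-fold lower, in the same direction as the reported probes. A second HLA-DQA1 probe gave -2.06.

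HLA-DOA, the alpha chain of the HLA-DM inhibitor HLA-DO, showed the widest gap of the 10 genes on average, although CIITA differed more with bortezomib at 24 h (-3.35 against -2.71). Without the dim array, on which CIITA was not well above background, that order turned (-2.28 for CIITA and -2.48 for HLA-DOA). HLA-DOA had 15.11 and 15.19 in untreated control cells at 6 h, and 15.41 and 15.22 at 24 h. In the cIAP2 line the corresponding signals were 12.46 and 12.59, and 12.64 and 12.61. The difference was 6.24-fold (log2 -2.64, SE 0.09, adjusted p = 1.07e-07, limma), far beyond the spread of the replicates. A second, dimmer HLA-DOA probe, well above background on 10 of 16 arrays, gave -0.67 (adjusted p = 0.0714).

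The chains of the peptide exchange factor HLA-DM were both lower in the cIAP2 line, to different degrees. HLA-DMB had 13.74 and 13.86 in untreated control cells at 6 h against 12.19 and 12.34 in the cIAP2 line, and was 3.01-fold lower on average. HLA-DMA had 13.47 and 13.46 against 12.47 and 12.71, and was 1.87-fold lower, with -0.97 on the log2 scale from a second probe. CD74, the invariant chain, had 12.46 and 12.30 in untreated control cells at 6 h and 10.77 and 11.11 in the cIAP2 line, and was 2.79-fold lower on average (log2 -1.48, SE 0.13).

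**Figure D1:**
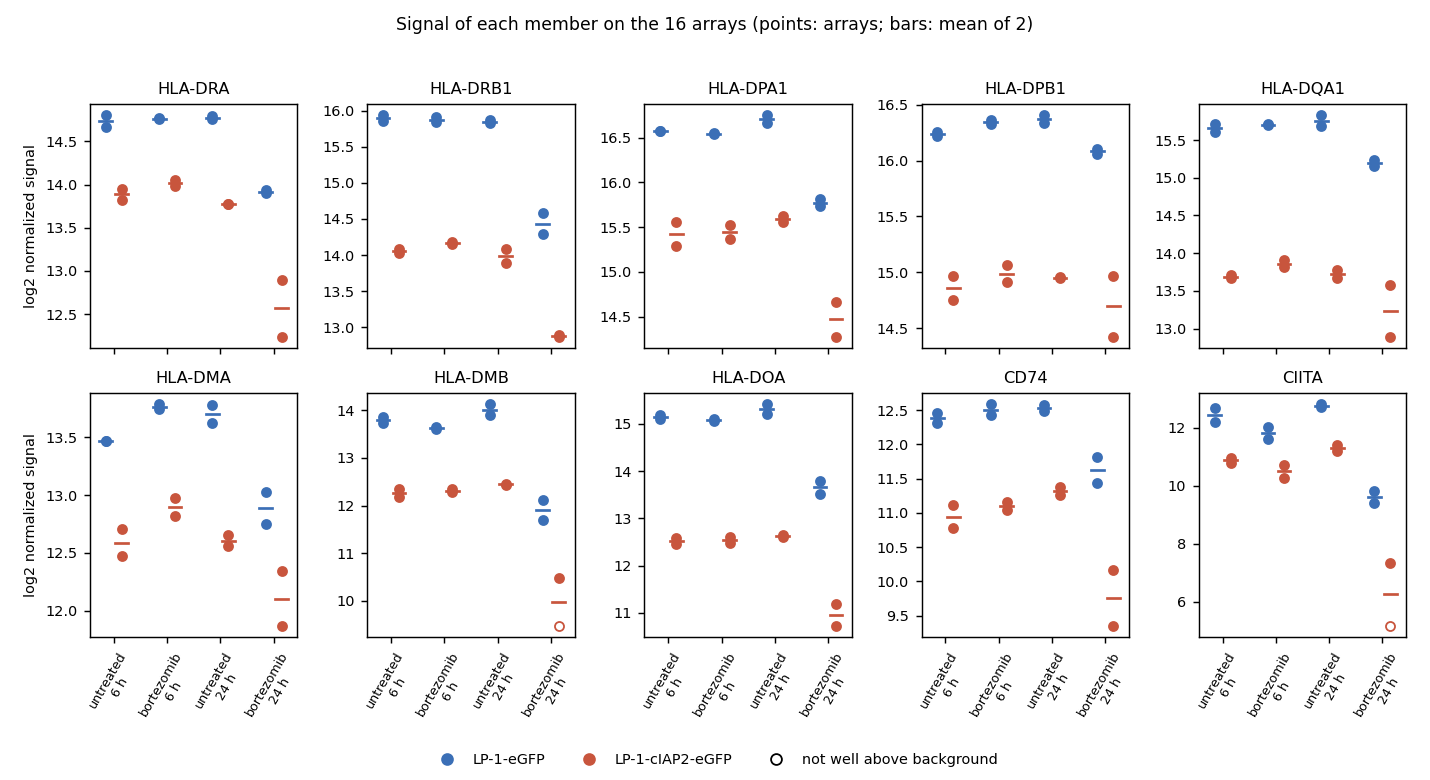
Log2 signal after quantile normalization (y axis) of the 10 genes, 1 panel each, in the 8 conditions of line, treatment and time (x axis); points are arrays, bars the mean of 2, and open points were not well above background. In every panel the points of the cIAP2 line lie below those of the control line in the same condition, and the points for bortezomib at 24 h lie lowest of each line, except for HLA-DPB1 in the cIAP2 line.

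Whether these differences pass as calls was set by 2 rules taken from the study's methods. The 3-way rule asks for an adjusted p under 0.001 for the effect of line averaged over treatment and time, and for more than 2-fold between the untreated lines. It called 8 of the 10 genes lower, while it called 2.43% of all genes lower and 0.957% higher, none of the 10 being higher. HLA-DRA and HLA-DMA passed the p-value (adjusted p = 9.2e-05 and 0.000121) but were 1.90-fold and 1.98-fold lower between the untreated lines. HLA-DMA was called by this rule with its probes averaged, and without any 1 of 3 of the 16 arrays. The 2-group rule sets the 8 arrays of a line against the other 8, with unadjusted p under 0.005 and more than 2-fold. It called 7 of the 10 lower, against 3.5% of all genes. HLA-DRA, HLA-DMA and CIITA were not called, CIITA because its p was 0.0388 over arrays that also differ in treatment. HLA-DRA was called without any 1 of 8 of the 16 arrays. HLA-DMA was called without 1 array and with normexp background correction. HLA-DMB was called with a p of 0.00424, and lost this call without any 1 of 9 of the 16 arrays and with 75th percentile scaling, normexp background correction, the replicate block or slide as a block. HLA-DPA1 lost it with slide as a block.

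In the untreated lines alone, 9 of the 10 genes passed an adjusted p of 0.05 at 6 h, where 2.87% of all genes were called lower, and 9 at 24 h, where 2.73% were. With bortezomib, 8 passed at 6 h (3.09% of all genes lower) and 10 at 24 h (5.17%). The arrays of the lines did not overlap for any of the 10 genes in the 4 conditions, which was so, with the lower level in the cIAP2 line, for 23.4% to 33.3% of all genes. Within a slide all 10 genes were lower wherever a slide held both lines. The medians were -1.60 and -1.30 for untreated cells at 6 h on the 2 slides, -1.39 for untreated cells at 24 h and -1.54 for bortezomib at 24 h. With slide as a block, 6 of the 10 passed the 3-way rule, and CIITA (adjusted p = 0.0112) and HLA-DMB (adjusted p = 0.00102) did not. CIITA also lost this call with the authors' normalized values (adjusted p = 0.00122), with no filter on dim probes (adjusted p = 0.00182) and with its probes averaged (log2 -0.92, adjusted p = 0.00258). HLA-DMB lost it with normexp background correction too (adjusted p = 0.00414). Without the dim array HLA-DMA at 24 h with bortezomib had an adjusted p of 0.107. The 3-way rule called 1 of 6 plasma cell and 1 of 4 B cell markers higher, against 0.957% of all genes. No gene of the other marker lists was called. The summed log2 signal of the monocyte and dendritic list was lower in untreated cIAP2 cells, with 6.45 to 6.61 against 7.40 to 7.48 at 6 h. At 24 h it was 6.83 to 7.33 against 7.61 to 7.88, and with bortezomib the lines overlapped. This sum held 3 tested genes, CD14, ITGAM and CLEC9A. All were dim, the brightest being CD14, which did not exceed 8.69 on any array. The part of these markers in the line difference was not tested.

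**Figure D2:**
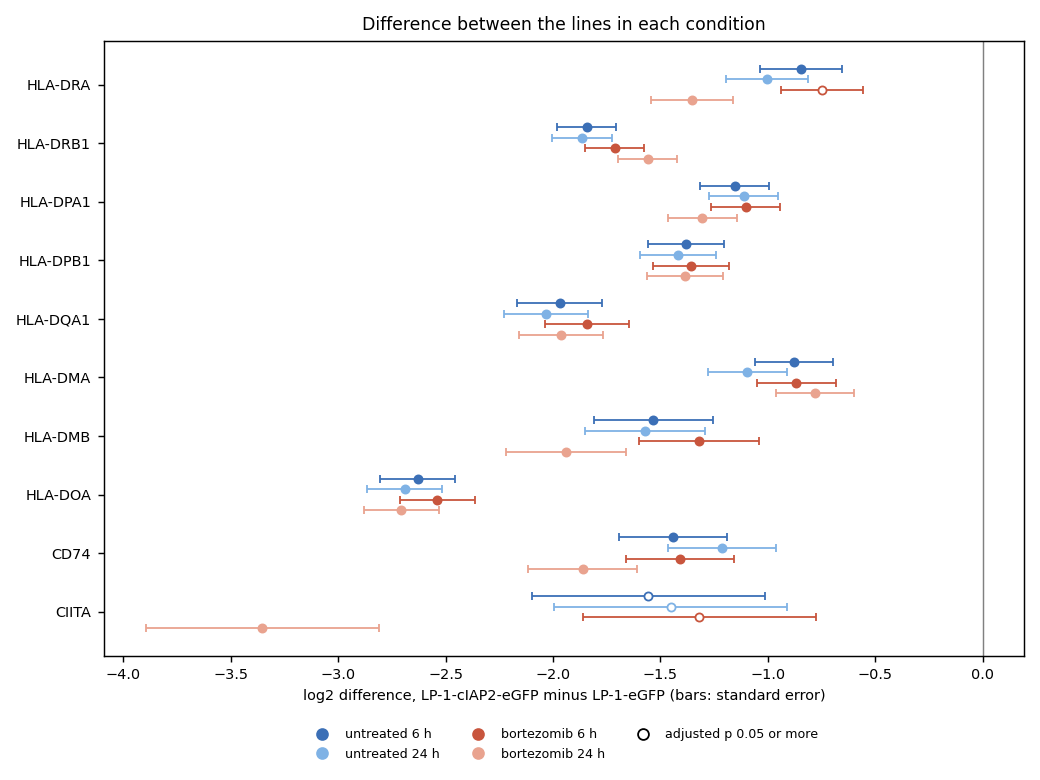
Log2 difference of the cIAP2 line minus the control line (axis in log2 units) for each of the 10 genes in the 4 combinations of treatment and time, with the standard error from limma; open symbols have an adjusted p of 0.05 or more. All values lie below 0, with HLA-DOA farthest from 0 on average (-2.64) and HLA-DMA nearest (-0.91).

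The second question was how the genes responded to proteasome inhibition. At 6 h none of the 10 was called in either line by limma, and 0 had an unadjusted p under 0.05, while 2.87% of all genes were called in the control line and 1.48% in the cIAP2 line. Differences ran from -0.62 for CIITA to 0.30 in the control and from -0.38 to 0.31 in the cIAP2 line. Within the slide that held both treatments they ran from -0.38 to 0.30 in the control and from -0.30 to 0.43 in the cIAP2 line. Treated arrays were lower without overlap for 4 of the 10 genes in the control line and 1 in the cIAP2 line. This was so for 36.6% and 30.9% of all genes. CIITA was among them in both lines, and its SE of 0.54 also takes in the dim array at 24 h. Higher without overlap were 2 and 4 of the 10, for which no share of all genes was taken. A second HLA-DMA probe had an unadjusted p under 0.05 in both lines but was not called. It changed by 0.38 in the control (adjusted p = 0.269, limma) and by 0.41 in the cIAP2 line (adjusted p = 0.271). At 24 h most of the genes were lower than in untreated cells, CIITA most of all, and HLA-DPB1 and HLA-DQA1 did not pass the threshold in either line.

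CIITA stood at 9.41 and 9.82 with bortezomib at 24 h in the control line, against 12.80 and 12.71 without. This was a fall of 8.80-fold (log2 -3.14, SE 0.54, adjusted p = 0.00262, limma). In the cIAP2 line it stood at 5.19 and 7.33, against 11.21 and 11.39. The treated arrays lay below every other array of their line. The lower of these signals came from the dim array, on which CIITA was not well above background. The log2 change was -5.04 with both arrays (adjusted p = 0.000143) and -3.97 without the dim array (adjusted p = 4.69e-05). The second, dim CIITA probe, with a mean log2 signal of 6.37, changed by -1.16 in the control line (adjusted p = 0.116) and 0.24 in the cIAP2 line (adjusted p = 0.724), and so passed the threshold in neither line.

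HLA-DMB fell next most among the 10, from 13.91 and 14.13 to 11.70 and 12.12 in the control line, and from 12.46 and 12.43 to 9.47 and 10.47 in the cIAP2 line, where the first treated array was not well above background. The log2 changes were -2.11 and -2.47, the latter -1.97 without that array (adjusted p = 0.000138). HLA-DOA fell from 15.41 and 15.22 to 13.52 and 13.80 in the control and from 12.64 and 12.61 to 10.73 and 11.18 in the cIAP2 line, 3.15-fold and 3.19-fold (log2 -1.45 in the cIAP2 line without the dim array). The partner of HLA-DMB, HLA-DMA, fell by 0.82 in the control line (adjusted p = 0.0104), and its change in the cIAP2 line was -0.50 (adjusted p = 0.0674) and -0.27 without the dim array (adjusted p = 0.294). A second HLA-DMA probe passed in both lines with all arrays, with -0.83 (adjusted p = 0.00223) and -0.51 (adjusted p = 0.0225).

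HLA-DRB1 fell from 15.83 and 15.87 to 14.29 and 14.58 in the control line and from 14.09 and 13.89 to 12.87 and 12.89 in the cIAP2 line, 2.67-fold and 2.16-fold. HLA-DRA fell from 14.76 and 14.79 to 13.90 and 13.94 in the control line, and from 13.78 and 13.77 to 12.24 and 12.90 in the cIAP2 line, a log2 change of -1.20 there and of -0.87 without the dim array. Both chains of HLA-DR thus fell in both lines. CD74 went from 12.48 and 12.58 to 11.43 and 11.81 in the control (1.88-fold, adjusted p = 0.0287) and from 11.26 and 11.38 to 9.35 and 10.16 in the cIAP2 line (2.95-fold, adjusted p = 0.00145). With slide as a block the change of CD74 in the control line was -0.79 (adjusted p = 0.0706), and without the dim array its change in the cIAP2 line was -1.16 (adjusted p = 0.00303).

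Of the chains of HLA-DP, the alpha chain passed the threshold and the beta chain did not. HLA-DPA1 fell from 16.66 and 16.75 to 15.73 and 15.81 in the control line, with a log2 change of -1.12 in the cIAP2 line (adjusted p = 0.00254 and 0.000691). HLA-DPB1 went from 16.33 and 16.41 to 16.06 and 16.11 in the control and from 14.95 and 14.96 to 14.42 and 14.97 in the cIAP2 line, where the groups overlapped. Its changes were -0.29 (SE 0.18, adjusted p = 0.334) and -0.25 (adjusted p = 0.310), and the latter became 0.02 without the dim array (adjusted p = 0.948). The other 3 probes of HLA-DPB1 moved by -0.18 to -0.07 in the control and by -0.34 to -0.23 in the cIAP2 line. On each array, HLA-DPA1 minus HLA-DPB1 relative to untreated cells of the same line and time was -0.66 and -0.63 in the control line and -0.79 and -0.95 in the cIAP2 line at 24 h with bortezomib, while the other arrays lay from -0.14 to 0.04. The second HLA-DPA1 probe gave -0.90 (adjusted p = 0.102) in the control line and -1.54 in the cIAP2 line. This pair was singled out after its values were seen, and the difference between the chains was not tested.

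For HLA-DQA1 the changes were -0.56 (adjusted p = 0.0761) and -0.49 (adjusted p = 0.0927), and -0.15 in the cIAP2 line without the dim array. A second HLA-DQA1 probe passed in the control line, with -0.80 (adjusted p = 0.00758), but not in the cIAP2 line, with -0.45 (adjusted p = 0.073). In the control line HLA-DQA1 was called with normexp background correction (adjusted p = 0.00589), array weights (adjusted p = 0.014), its probes averaged (adjusted p = 0.0276), the replicate block (adjusted p = 0.0468) and a filter asking for signal on all 16 arrays (adjusted p = 0.0234). That filter also called HLA-DQA1 (adjusted p = 0.0376) and HLA-DMA (adjusted p = 0.0230) in the cIAP2 line, and HLA-DMA was called there with its probes averaged too (adjusted p = 0.0463).

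In the control line, 8 of the 10 genes fell with bortezomib at 24 h, where 15.1% of all genes fell and 13.3% rose. The 10 genes had a median change of -0.92 against -0.03 for all genes. In the cIAP2 line, 7 fell, where 22% of all genes fell and 14.4% rose, with a median of -1.16 against -0.16. None of the 10 rose in either line. The treated and untreated arrays did not overlap for 10 of 10 genes in the control line and for 9 of 10 in the cIAP2 line, each with the lower level on the treated arrays, which was so for 34.6% and 36.2% of all genes. All 10 were lower within the slide that held treated and untreated arrays of the control line (median -0.87) and of the cIAP2 line (median -1.21). In the control line the count fell to 5 without bortezomib 24 h replicate 1 and to 5 without untreated 24 h replicate 2, and HLA-DRA, HLA-DMA and CD74 were then no longer called. With normexp background correction 6 were called, HLA-DQA1 among them, while HLA-DMB (log2 -2.03, adjusted p = 0.0655), HLA-DMA (adjusted p = 0.139) and HLA-DRA (adjusted p = 0.209) were not. CD74 was not called with no filter on dim probes or with slide as a block. Without the dim array, the share of all genes that fell in the cIAP2 line was 18.3%, and the same 7 of the 10 genes had an adjusted p under 0.05. The summed log2 signal of the plasma cell markers moved the same way, to between 16.99 and 17.17 on the 4 arrays with bortezomib at 24 h from between 18.11 and 18.71 on the others, with 5 of 6 falling in each line and JCHAIN the exception. SDC1, the syndecan that marks plasma cells, changed by -1.80 and -3.11 and the secretory factor XBP1 by -1.72 and -1.20. Of the 4 B cell genes tested, 2 fell and 2 were not called in each line. BLK, a kinase of the B cell receptor route, changed by -2.70 and -4.12. CR2, a complement receptor, had a mean log2 signal of 8.92 untreated and 3.32 with bortezomib in the control line. In the cIAP2 line these means were 8.73 and 4.33. CR2 was not well above background on the treated arrays, so the size of its fall is uncertain. The part of these markers in the class II result was not tested.

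**Figure D3:**
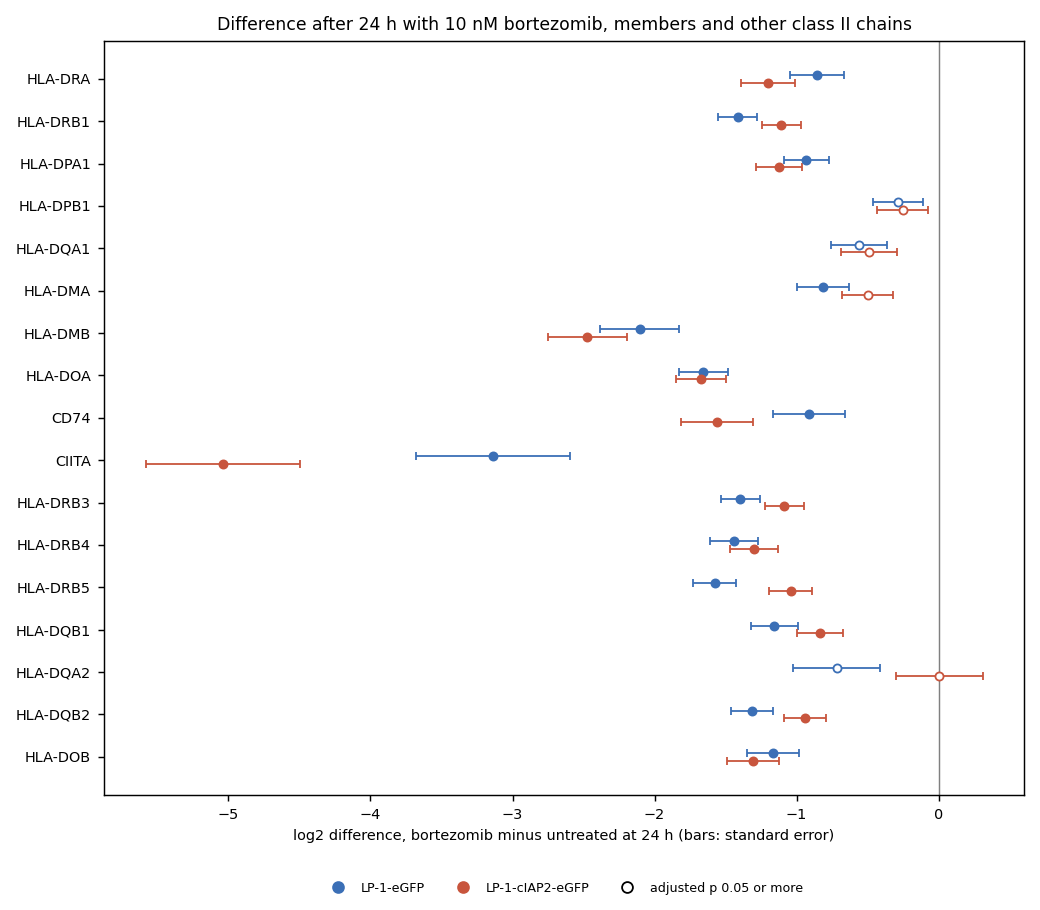
Log2 difference of bortezomib minus untreated at 24 h (axis in log2 units) in the control line and the cIAP2 line for the 10 genes and 7 further class II chains, with the standard error from limma; open symbols have an adjusted p of 0.05 or more. CIITA lies farthest from 0 in both lines (-3.14 and -5.04), and HLA-DPB1 lies near 0 in both (-0.29 and -0.25).

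The response at 24 h was not shown to differ between the lines for any of the 10 genes. By limma 0 of the 10 were called, 1 had an unadjusted p under 0.05, and 0.104% of all genes were called. CIITA had the widest difference of responses, -1.90 on the log2 scale (SE 0.77, unadjusted p = 0.0334, adjusted p = 0.598), which became -0.83 without the dim array (adjusted p = 0.612). CD74 followed with -0.65, which became -0.24 without the dim array. In size it then stood behind HLA-DMA (0.55, adjusted p = 0.515), HLA-DQA1 (0.41, adjusted p = 0.504), HLA-DRB1 (0.32, adjusted p = 0.796) and HLA-DPB1 (0.30, adjusted p = 0.745) as well as CIITA. When replicate 2 of the cIAP2 line with bortezomib at 24 h was left out, so that the dim array stood alone, 4 genes were called (HLA-DRA, HLA-DMB, CD74 and CIITA). Between untreated cells at 24 h and at 6 h, 0 of the 10 were called in each line by limma, and 0 had an unadjusted p under 0.05. Of all genes 0% were called in the control line and 0.0122% in the cIAP2 line, so these counts are not particular to the class II genes.

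For HLA-DRB1 all 4 conditions of the control line lay above all 4 of the cIAP2 line. The first 3 conditions in its order, those of the control line other than bortezomib at 24 h (means 15.90, 15.88 and 15.85), overlapped with their neighbours, as did untreated cIAP2 cells at 6 h and 24 h (14.06 and 13.99). For HLA-DRA the control line with bortezomib at 24 h (mean 13.92) overlapped with untreated cIAP2 cells at 6 h (13.89), and untreated cIAP2 cells at 24 h (13.77) lay below both. Its lowest condition was the cIAP2 line with bortezomib at 24 h, at 12.57. For CIITA and HLA-DMB the control line with bortezomib at 24 h (means 9.61 and 11.91) lay below untreated cIAP2 cells. These had 10.88 and 12.27 at 6 h, and 11.30 and 12.45 at 24 h. The means of HLA-DPA1, HLA-DPB1, HLA-DQA1, HLA-DOA and CD74 separated the lines as those of HLA-DRB1 did.

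The 7 class II chains outside the rule behaved in much the same way between the lines, with 1 exception. The 3-way rule called 6 of them lower in the cIAP2 line, against 2.43% of all genes, namely HLA-DRB3 (-1.99), HLA-DRB4 (-2.13), HLA-DRB5 (-2.05), HLA-DQB1 (-1.71), HLA-DQA2 (-1.88) and HLA-DQB2 (-1.60). Several of these are close copies of each other, so their probes are not separate evidence. HLA-DOB, the beta chain of HLA-DO and the partner of HLA-DOA, had a line difference of 0.03 (SE 0.09, adjusted p = 0.871). HLA-DOB still fell with bortezomib at 24 h, with -1.17 in the control line (adjusted p = 0.00144) and -1.31 in the cIAP2 line (adjusted p = 0.000594). Of the 7 chains, 6 fell in each line at 24 h, where 15.1% of all genes fell in the control line and 22% in the cIAP2 line. HLA-DQA2 was the exception, with -0.72 (adjusted p = 0.142) and 0.00 (adjusted p = 0.997).

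Of the 8 factors that bind the X and Y boxes, 0 were called between the lines by the 3-way rule in limma, near the 2.43% of all genes called lower and 0.957% called higher, and 4 had an unadjusted p under 0.05. ATF1, a factor of the CREB family, passed the p-value with 0.80 higher in the cIAP2 line (adjusted p = 6.97e-05) but stayed under 2-fold. With bortezomib at 24 h, 4 of the 8 fell in the control line, against 15.1% of all genes, namely NFYB (-1.40), RFXAP (-1.08), RFX5 (-0.74) and ATF1 (-0.64). In the cIAP2 line 2 of the 8 fell, RFXAP (-1.22) and NFYB (-1.12), near the 22% of all genes, and NFYA, another NF-Y subunit, rose by 0.85. Without the dim array RFXAP was no longer called (-0.84, adjusted p = 0.0507).

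The list of CIITA regulators held genes of the interferon gamma route and of B cell and plasma cell identity. Of its 13 genes 12 were tested, and PAX5, the B cell factor, was well above background on 0 arrays. The 3-way rule called 2 of the 12 lower in the cIAP2 line, against 2.43% of all genes. These were IRF1, an interferon-induced activator (log2 -1.37, adjusted p = 2.79e-05, limma), and SOCS1, a feedback inhibitor of JAK kinases (-1.26, adjusted p = 0.000735). With bortezomib at 24 h, 3 of the 12 rose and 2 fell in the control line, against 13.3% and 15.1% of all genes. SOCS1 rose by 1.23 and the receptor chain IFNGR1 by 1.04, while IRF2 fell by 1.20. PRDM1, the plasma cell repressor of CIITA, fell by 0.95, with the spot of bortezomib replicate 1 left out. Its treated level there rests on 1 array, and the spread was taken from the other conditions. In the cIAP2 line, 2 rose and 4 fell, against 14.4% and 22% of all genes, and without the dim array 4 rose and 4 fell. SOCS1 rose by 2.55 and IFNGR1 by 1.48, and PRDM1 fell by 1.47. IRF2 went from a mean log2 signal of 6.61 to 4.06 in the cIAP2 line (adjusted p = 0.000506, limma). It was not well above background on either treated array, so the size of its fall is uncertain.

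Of the 13 genes of peptide loading and traffic, 11 were matched and 9 tested, and the protease CTSS and the ubiquitin ligase MARCHF1 were well above background on 0 arrays. CTSB, a lysosomal cysteine protease, was the 1 gene of the 9 called between the lines by the 3-way rule (-1.30, adjusted p = 1.1e-06, limma), where 2.43% of all genes were called lower. CTSD, a lysosomal aspartic protease, rose with bortezomib at 6 h already, by 0.93 in the control line and 0.73 in the cIAP2 line (adjusted p = 0.00974 and 0.0389). At 24 h, 3 of the 9 rose and 2 fell in each line, where 13.3% and 14.4% of all genes rose and 15.1% and 22% fell, so that the number falling is near the share of all genes. CTSD rose by 2.30 and 2.12, and IFI30, the lysosomal thiol reductase that prepares antigens for class II loading, fell (-2.02 and -2.24). CTSH fell too (-0.92 and -1.08), but was not called in the cIAP2 line without the dim array (-0.65, adjusted p = 0.0761).

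Of the 4 partners of CD74 as a cell surface receptor, 0 were called between the lines by the 3-way rule in limma, which is near the share of all genes (2.43% lower and 0.957% higher), and 1 had an unadjusted p under 0.05. That was the co-receptor CD44, 0.90 higher in the cIAP2 line (adjusted p = 3.76e-05) and 1.86-fold. With bortezomib at 24 h, 2 of the 4 fell in each line, where 15.1% of all genes fell in the control line and 22% in the cIAP2 line. The ligand MIF fell by 1.07 in each line, and the chemokine receptor CXCR4 fell too (-1.94 and -1.95). CD44 and CXCR2 were not called. CXCR4 was also lower at 6 h in the cIAP2 line (-0.80, adjusted p = 0.029).

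**Figure D4:**
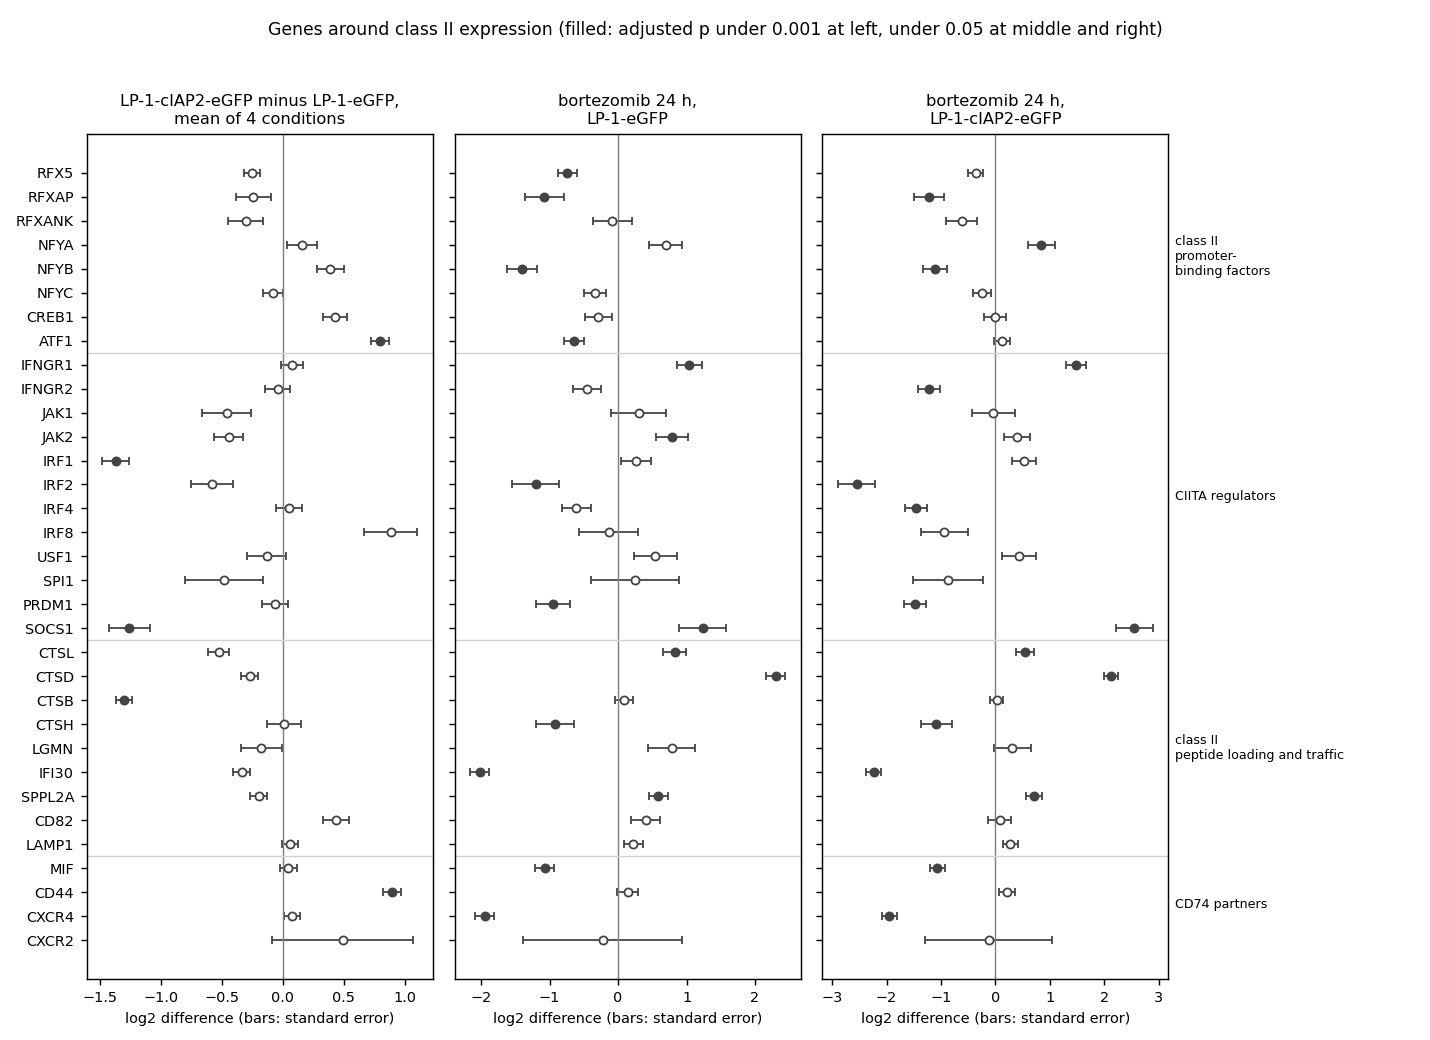
Log2 differences (axis in log2 units) of the promoter-binding factors, CIITA regulators, loading and traffic genes and CD74 partners, in 3 panels for the line effect, bortezomib at 24 h in the control line and bortezomib at 24 h in the cIAP2 line. Filled symbols have an adjusted p under 0.001 in the line panel, whatever the fold, and under 0.05 in the other panels; IRF1 (-1.37) lies lowest in the line panel, and CTSD (2.30 and 2.12) and IFI30 (-2.02 and -2.24) lie far apart with bortezomib.

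The genes whose pattern over the arrays was most like that of HLA-DRA, CD74 and CIITA were ranked by the smaller of 2 Pearson correlations, each over the 8 arrays of a line, among 13885 candidate genes. The arrays share conditions and scaling, so the values describe the pattern and carry no p. HLA-DRA was followed by HLA-DRB4 (0.991), a class II chain, then NUP58 and HNRNPR (both 0.985), TBC1D5 (0.984) and FKBP1A (0.983). CD74 was followed by NXPH4 (0.972), ANAPC16 (0.971), SLC19A1 (0.970), PRPS2 (0.970) and C5 (0.968). CIITA was followed by NEMP2 (0.991), ESYT2 (0.990), ABR (0.990), OMA1 (0.988) and SYNPO (0.988). Of these 15 genes HLA-DRB4 was the class II gene. HNRNPR, for example, changed by -0.98 and -1.11 with bortezomib at 24 h and by 0.02 between the lines. The line differences of the 15 genes ran from -4.67 for ABR to 0.56 for ESYT2.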

How the data were processed

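Total RNA of the 16 cultures was hybridised to 1-colour Agilent arrays. Per the file headers, the deposited intensity values had been made by Agilent Feature Extraction, which subtracts the background and removes spatial trends, without normalization between arrays; this can shift dim spots most. The authors also deposited log2 values, quantile normalized in GeneSpring as their methods state and centred on each probe's median, which served as an alternative. Spots marked non-uniform or outlying were left out, the log2 values of a probe's spots were averaged, and arrays were quantile normalized in limma 3.58.1 (R 4.3.3). A probe was tested where both arrays of some condition gave a signal well above background, which left 33731.

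Of 50599 gene probes, 28174 (55.7%) were named through RefSeq accessions and a GRCh38.p14 table, used for names and promoter windows alone. A gene is reported by its brightest tested probe, and every probe of a member was examined. limma gave each condition a mean, with 8 residual and 1.61 prior degrees of freedom. p-values were adjusted by Benjamini-Hochberg over all tested probes. The 3-way rule and the 2-group rule follow the limits in the study's methods, and the other contrasts were called at adjusted p under 0.05. Of the other lists, up to 4 genes per contrast with the largest change past the threshold are named. The genes of like pattern were ranked by the smaller of their correlations within the lines. The sources give the replicates as biological, without saying that the cultures were independent, so the p-values measure the spread between these samples. The number of arrays limits the precision. The members and lists were chosen with earlier results of these data known. The alternatives were other scaling, background correction, filters, thresholds and probe averaging, array weights, slide or replicate as a block, and leaving out each array. The fit was tested on simulated data. A gene of the CIITA regulator list and a gene of the B cell marker list are not reported here, and the counts and sums of those lists leave them out.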

Additional observations from a re-analysis of the deposited data

How the results depend on the processing

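All 10 genes were lower in LP-1-cIAP2-eGFP under each of the 4 scalings tried (quantile, 75th percentile, normexp background, the authors' normalized values). Scaling to the 75th percentile moved the median of all probes for bortezomib at 24 h in LP-1-cIAP2-eGFP from -0.16 to 0.21, and the 10 genes then had a median of -1.41; with normexp 9 of the 10 were lower, HLA-DPB1 standing at 0.08 (adjusted p = 0.700). Asking also for more than 2-fold left 4 genes (CIITA, HLA-DMB, HLA-DOA and HLA-DRB1) called with bortezomib at 24 h in LP-1-eGFP, against 8 without that limit. When each array was left out in turn, the number called ranged from 7 to 8 by the 3-way rule, 6 to 9 by the 2-group rule, 0 to 0 with bortezomib at 6 h in each line, 5 to 9 at 24 h in LP-1-eGFP, 7 to 10 at 24 h in LP-1-cIAP2-eGFP and 0 to 4 for the difference of responses. The replicate numbers were not taken as pairs, since the correlations of deviations ran from -0.11 to 0.24 over 28 pairs of conditions and 7 of them, not all, were over 0.1. With the replicate number as a block, 8 genes were called by the 3-way rule, 6 by the 2-group rule, 9 and 8 with bortezomib at 24 h (gaining HLA-DQA1 in the control line at an adjusted p of 0.0468 and HLA-DMA in the cIAP2 line at 0.0362), and 0 for the difference of responses. A filter asking for signal on all 16 arrays left out CIITA and HLA-DMB. With 2 arrays per condition, CIITA had the widest standard error, and its signal on the dim array was not well above background.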
